A study of Mus musculus with 22 samples.

Results

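The mevalonate arm of cholesterol synthesis is the run of enzymes that turns acetyl-CoA into squalene. It was followed here through 8 genes, Acat2, Hmgcs1, Mvk, Pmvk, Mvd, Idi1, Fdps and Fdft1, of the 20018 genes named on the array. The genes were chosen by their place in the pathway, and a probe was taken as theirs when its accession mapped to the symbol, which gave 11 of 55681 probes. All 8 genes were represented, 5 by a single probe and Mvk, Pmvk and Fdft1 by a pair of probes. Each gene was read from its brightest probe, which was detected above the negative control spots on all 22 arrays and saturated on none.

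FE1, a cell line derived from MutaMouse lung epithelium, was incubated for 24 h with Mitsui7, a multi-walled carbon nanotube. The control group (0 µg/ml) held 5 arrays, the low dose (12.5 µg/ml) 6, the medium dose (25 µg/ml) 5 and the high dose (100 µg/ml) 6, and the groups shared the cell line, the medium and the time. RNA of the cells carried Cy5 and Universal Mouse Reference RNA, a commercial pool that was the same on every array, carried Cy3, with no dye swap. A level is therefore the log2 ratio of FE1 RNA to that pool for 1 probe, and cannot be set against the level of another gene. FE1 is a single line. The cells were exposed in 3 separate experiments, fewer than the arrays of a group, so some arrays of a group share an experiment, and neither the labels nor the methods say which. The p-values and n therefore count arrays, and measure a spread that may be partly technical. In bulk RNA, fewer cells of a type and less RNA per cell cannot be told apart.

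The arrays lay on 5 slides, with 2 arrays of every group on slide 1, a single array of every group on slides 2 to 4, and only a low dose and a high dose array on slide 5. Between 23688 and 39139 probes were detected on the control arrays and between 29562 and 36831 on the high dose arrays. Over 19430 probes, 16 of 22 arrays correlated best with the other arrays of their own group. The array labelled low dose replicate 1 was most like the medium dose arrays (r = 0.53, against -0.38 with its own group), and the array labelled medium dose replicate 2 was most like the low dose arrays (r = 0.15, against -0.35 with its own group). Both stay in the groups of their labels, and the counts are also given without them. They were not the only such arrays. Low dose replicate 2 was most like the controls (r = 0.20, against -0.01 with its own group). Medium dose replicates 1 and 5 were most like the high dose, and high dose replicate 6 was most like the medium dose. Low dose replicate 1 also deviated together with medium dose replicate 1, of the same number and slide (r = 0.86). Of the 6 epithelial markers examined, the keratins Krt8, Krt18 and Krt7 were detected on 22 arrays and Krt19 on 21, Epcam on 10 and the adhesion molecule Cdh1 on 0. Of the 6 fibroblast markers, Col1a1, Col1a2, Col3a1, Dcn and Pdgfra were detected in at least 4 control arrays.

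Cells make cholesterol from acetyl-CoA in the cytosol and the endoplasmic reticulum. Acat2 joins acetyl-CoA units, and Hmgcs1 makes HMG-CoA, which is then reduced to mevalonate. Mvk, Pmvk and Mvd phosphorylate and decarboxylate mevalonate, Idi1 sets the balance of the isoprene units, Fdps joins them to farnesyl diphosphate, and Fdft1 couples farnesyl diphosphate to squalene, the first compound committed to sterols. Farnesyl diphosphate also feeds protein prenylation, dolichol and ubiquinone. The genes of the pathway are known targets of SREBP transcription factors, which are released from the endoplasmic reticulum when sterols are low, and lung epithelium uses the pathway for membranes and surfactant lipids.

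All 8 enzymes fell at the medium and at the high dose, and 3 of 8 (Mvk, Mvd and Fdps) fell at the low dose. The change passed when the Benjamini-Hochberg adjusted p of limma was at most 0.05, the change at least 1.5-fold and the probe seen above background in 4 or more arrays of one of the groups. None of the 8 rose at any dose. The median log2 change of the 8 was -0.47 at the low, -0.74 at the medium and -1.06 at the high dose, while the median over all detected probes was 0.01 at each dose. Among all detected probes, 577 (1.88%) fell at the low dose, 869 (2.92%) at the medium dose and 1359 (4.21%) at the high dose. The 3 comparisons share the same 5 control arrays and are not independent of each other.

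**Figure D1:**
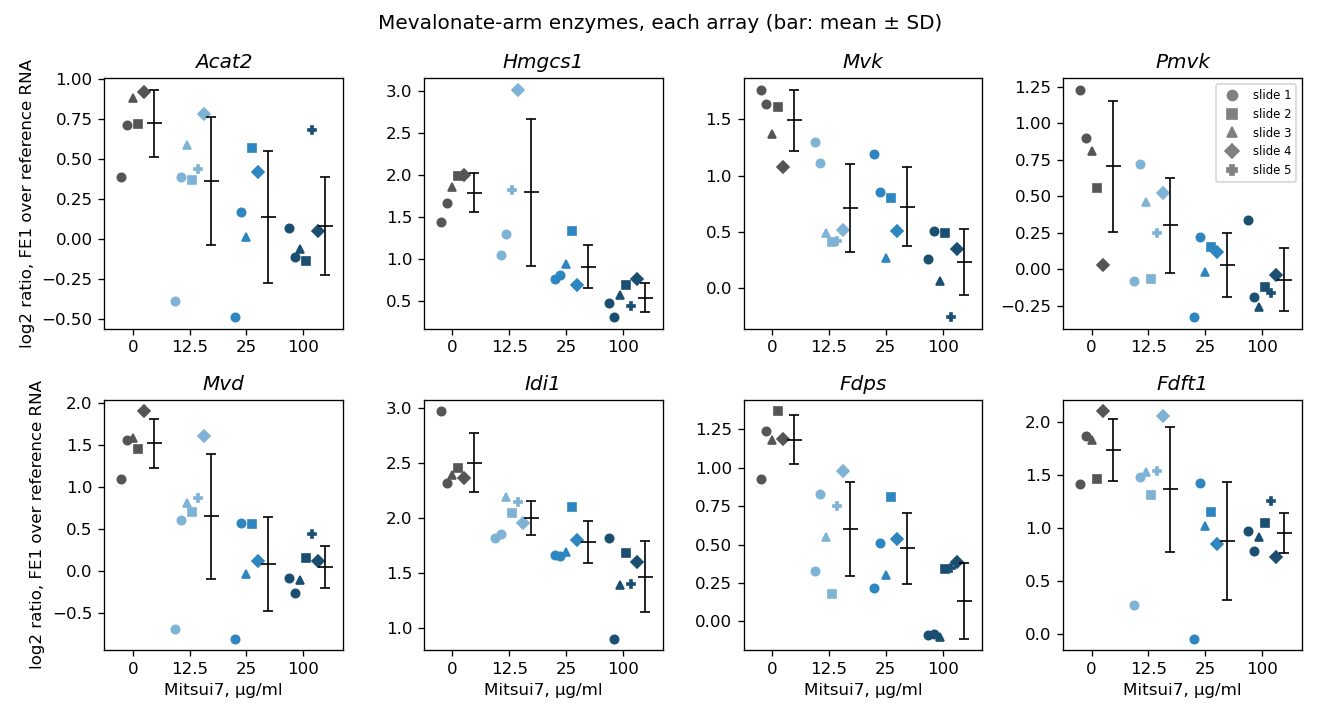
Log2 ratio of FE1 RNA to reference RNA (vertical axis, a separate scale for each gene) on each array against the dose of Mitsui7 in µg/ml, with marker shapes for the 5 slides and bars for the mean ± SD of each group. The control arrays of Idi1 (2.32 to 2.97) and Fdps (0.93 to 1.37) sit above all high dose arrays, and Hmgcs1 at the low dose has a wide spread over 4 measured arrays.

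Once differences between slides were removed, every low dose array was below every control array for 5 of 8 enzymes, every medium dose array for 6 and every high dose array for 7. Among all detected probes this held for 4.21% at the low dose, 5.74% at the medium dose and 7.4% at the high dose. The exceptions were Hmgcs1, Pmvk and Fdft1 at the low dose, Pmvk and Fdft1 at the medium dose and Pmvk at the high dose. Within slides 1 to 4, each of which carried its own control, an enzyme was lower than that control in 28 of 30 differences at the low dose, 31 of 32 at the medium dose and 32 of 32 at the high dose. The median within-slide difference in log2 ratio was -0.45, -0.79 and -1.05, close to the medians of the fit. These differences are not independent, because the enzymes on a slide share its arrays and correlate with each other. They describe 4 slides, and the count was not made over all probes.

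The count at the high dose was the steadiest of the 3. With low dose replicate 1 and medium dose replicate 2 left out together, 2 enzymes passed at the low dose (Mvk and Mvd, with Fdps at -0.58 just under the fold), and 8 at the medium and high dose. With each array centred on its median in place of loess, 1 enzyme passed at the low dose, 1 at the medium dose and 6 at the high dose. Markers of fibroblasts moved with the enzymes, since 5 of the 6 fell at every dose, and the range over arrays of their mean log2 ratio was -0.06 to 0.40 in controls and -1.44 to -0.97 at the high dose. Of the 6 epithelial markers, 0 fell at the low dose and 1 (Krt7) at the medium and the high dose, and 0 rose at any dose. The mean log2 ratio of the epithelial markers ran from -3.58 to -2.5 over the control arrays and from -3.58 to -3.02 at the high dose. The part of these shifts in the result was not tested.

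The sequences before the start of the genes are shown because the enzymes moved together and are known targets of shared factors. RefSeq promoters of build GRCm38.p6 were held for 6 of the 8 genes, and the 250 bases before the start were searched on both strands for the sterol regulatory element TCACNCCAC, the CCAAT box CCAAT, the GC box GGGCGG and the E-box CACGTG. Matches to the sterol regulatory element or the CCAAT box are in capitals, and on the opposite strand the CCAAT box reads ATTGG.
Hmgcs1, chr13:119690101-119690350, plus strand: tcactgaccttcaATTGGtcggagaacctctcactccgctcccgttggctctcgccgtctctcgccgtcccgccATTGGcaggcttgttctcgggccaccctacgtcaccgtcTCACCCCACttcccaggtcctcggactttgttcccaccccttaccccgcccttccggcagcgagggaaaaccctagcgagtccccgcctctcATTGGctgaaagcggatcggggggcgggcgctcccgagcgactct
Mvk, chr5:114444019-114444268, plus strand: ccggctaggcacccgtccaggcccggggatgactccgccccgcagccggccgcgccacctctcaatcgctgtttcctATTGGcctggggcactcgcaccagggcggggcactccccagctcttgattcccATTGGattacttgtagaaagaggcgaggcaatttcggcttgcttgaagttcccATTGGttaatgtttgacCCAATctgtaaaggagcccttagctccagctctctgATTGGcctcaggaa
Mvd, chr8:122443423-122443672, minus strand: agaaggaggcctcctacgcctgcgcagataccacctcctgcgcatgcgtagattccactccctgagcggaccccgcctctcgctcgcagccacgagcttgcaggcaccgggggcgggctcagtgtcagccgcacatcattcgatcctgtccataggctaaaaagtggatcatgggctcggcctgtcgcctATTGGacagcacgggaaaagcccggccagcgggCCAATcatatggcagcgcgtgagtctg
Idi1, chr13:8885356-8885605, plus strand: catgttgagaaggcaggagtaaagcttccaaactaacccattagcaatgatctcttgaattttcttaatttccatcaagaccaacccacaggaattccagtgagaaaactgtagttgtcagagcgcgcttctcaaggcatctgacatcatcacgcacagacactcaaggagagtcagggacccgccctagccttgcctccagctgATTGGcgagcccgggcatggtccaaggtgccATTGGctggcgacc

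The letters of the sterol regulatory element were found in 1 of 7 member promoters (Pmvk has a pair), that of Hmgcs1, as TCACCCCAC from base -137 to base -129 counted from the start, and in 1.05% of 32851 promoters of all genes. The CCAAT box was found before Hmgcs1, Mvk, Pmvk, Mvd and Idi1, that is in 5 of 7 member promoters against 33.8% of all promoters. Mvk carried 5 matches within the window, at bases -173, -120, -67, -50 and -14. The GC box was found in 5 of 7 member promoters against 32.7% of all, and the E-box in 0 of 7 against 6.02%. A match is a description of the letters and not a measured binding site. Only exact matches within the window were sought, so the lack of a match does not show that a gene lacks the element.

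**Figure D2:**
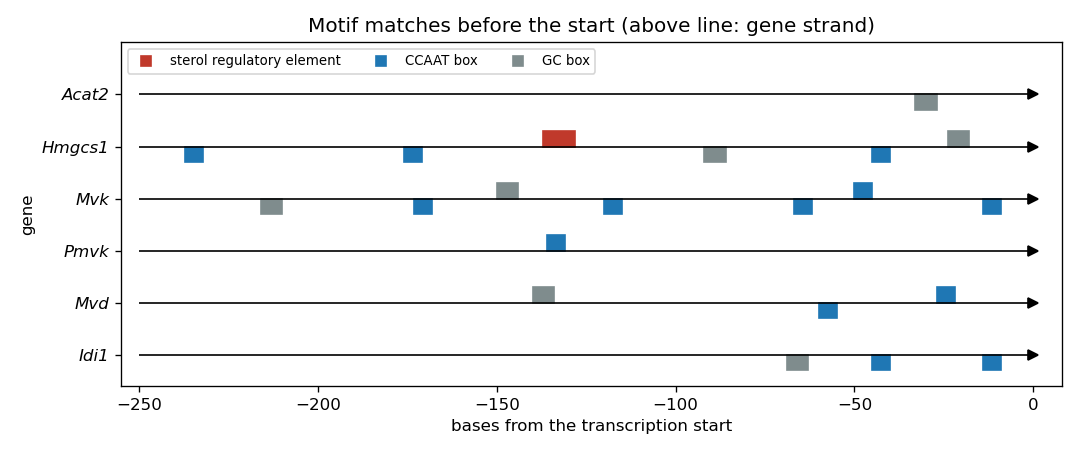
Motif matches in the 250 bases before the start of the 6 genes with a RefSeq promoter (horizontal axis, bases from the transcription start; boxes above the line lie on the strand of the gene, boxes below on the other). Hmgcs1 alone of the 6 holds an exact match to the searched letters of the sterol regulatory element, and Acat2 a match to the GC box but none to the CCAAT box.

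The first reactions of the arm, which build HMG-CoA, are those of Acat2 and Hmgcs1. Acat2, the cytosolic acetyl-CoA acetyltransferase, read 0.39, 0.71, 0.88, 0.72 and 0.92 in control replicates 1 to 5. At the low dose its log2 ratio ran from -0.39 over a median of 0.41 to 0.78, at the medium dose from -0.49 over 0.17 to 0.57, and at the high dose from -0.14 over a median of 0 to 0.68. Raw values of the controls overlapped with each dosed group. After slide adjustment the controls lay above each dosed group, by less than the printed digits show at the low dose (lowest control and highest low dose array both 0.71), and the dosed groups overlapped with each other. Acat2 had the smallest change of the 8 at the high dose in the main fit, -0.71 (SE 0.17, adjusted p = 0.00815 by limma), which is 61.2% of the control level. This rank depended on the processing. The Acat2 probe was the dimmest of the 8 (mean log2 Cy5 signal 7.644), and the main fit removed no background. With the scanner log ratio Acat2 changed by -1.04 and Pmvk by -0.75, while normexp background correction gave -0.62 for Acat2. At the medium dose the change of Acat2 in the main fit was -0.59 (SE 0.17), at the edge of both thresholds with a 1.5-fold decrease and an adjusted p of 0.0471. At the low dose it was -0.43 (SE 0.17, adjusted p = 0.209). Acat2 lies beside the near-identical Acat3, so their probes may share RNA, and it overlaps Tcp1 at the end of the gene.

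Hmgcs1, the cytosolic HMG-CoA synthase, differed from the other enzymes at the low dose. Its control arrays read 1.45, 1.67, 1.86, 1.99 and 2.01. Only 4 of the 6 low dose arrays had a usable spot, and they read 1.05, 1.30, 1.83 and 3.02, with 2 below and 1 above every control array. The change at the low dose was 0.10 (SE 0.23, 95% interval -0.37 to 0.58, adjusted p = 0.903), and over the alternatives it ran from -0.31 (without low dose replicate 6) to 0.78 (without slide 1). The spots on low dose replicates 3 and 4 carried the scanner's outlier mark, and read 0.56 and 3.83 when kept. At the medium dose the arrays read 0.77, 0.81, 0.94, 1.34 and 0.70, and at the high dose from 0.31 over a median of 0.53 to 0.77, all below the lowest control array. Hmgcs1 fell by 0.88 (SE 0.20) at the medium dose and by 1.23 (SE 0.19, adjusted p = 0.000324) at the high dose, to 42.5% of control. With the marked spots kept the high dose change was -1.23 (adjusted p = 0.0209) and the medium dose change, -0.88, did not pass (adjusted p = 0.168).

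The kinases and the decarboxylase that follow mevalonate include the enzymes with the clearest changes. Mvk, mevalonate kinase, read 1.76, 1.64, 1.37, 1.61 and 1.08 in the controls. Its log2 ratio ran from 0.41 over a median of 0.51 to 1.30 at the low dose, and read 1.19, 0.85, 0.27, 0.80 and 0.51 at the medium dose. At the high dose it ran from -0.26 over a median of 0.31 to 0.51, so that all 6 arrays were below the lowest control. Mvk fell by 0.71 (SE 0.12, adjusted p = 0.00194) at the low, by 0.77 (SE 0.13, adjusted p = 0.000665) at the medium and by 1.18 (SE 0.12, adjusted p = 2.24e-06) at the high dose. The dimmer Mvk probe changed by -0.91 (SE 0.33), -0.85 (SE 0.33) and -1.16 (SE 0.33) and passed only at the high dose. The levels were 61.3%, 58.8% and 44.2% of control by the brighter probe.

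Pmvk, phosphomevalonate kinase, had the widest control spread of the 8. Its control arrays read 1.23, 0.90, 0.81, 0.56 and 0.03, and its high dose arrays ran from -0.26 over a median of -0.14 to 0.34. Control replicate 5, the lowest control, lay inside the range of every dosed group. The change was -0.39 (SE 0.19, adjusted p = 0.352) at the low, -0.68 (SE 0.19, adjusted p = 0.0400) at the medium and -0.76 (SE 0.19, adjusted p = 0.0109) at the high dose. The dimmer Pmvk probe, with controls between 0.48 and 0.94 and high dose arrays between -0.75 and -0.17, gave -0.89 (SE 0.21, adjusted p = 0.0187), -0.73 (SE 0.22, adjusted p = 0.0531) and -1.16 (SE 0.21, adjusted p = 0.000983). The pair of probes thus differed in the doses at which they passed and shared the direction.

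Mvd, the decarboxylase that yields isopentenyl diphosphate, had the lowest values relative to control at all 3 doses. Its control arrays read 1.09, 1.55, 1.58, 1.45 and 1.90 and its medium dose arrays -0.81, 0.57, -0.04, 0.55 and 0.12. The low dose arrays ran from -0.69 over a median of 0.75 to 1.60, and the high dose arrays from -0.27 over a median of 0.01 to 0.44. The lowest value at the low dose, -0.69, was that of replicate 1, the array that resembled the medium dose, and the next was 0.60. Mvd fell to 52.5% of control at the low dose (log2 change -0.93, SE 0.25, adjusted p = 0.0431), to 37.0% at the medium dose (-1.43, SE 0.26, adjusted p = 0.00129) and to 34.5% at the high dose (-1.53, SE 0.25, adjusted p = 0.000322). Without low dose replicate 1 and medium dose replicate 2 the change was -0.71 (adjusted p = 0.0333) at the low dose and -1.62 at the medium dose. The low dose call of Mvd was lost in 27 of 43 alternative settings, with the adjusted p between 0.00443 and 0.166.

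**Figure D3:**
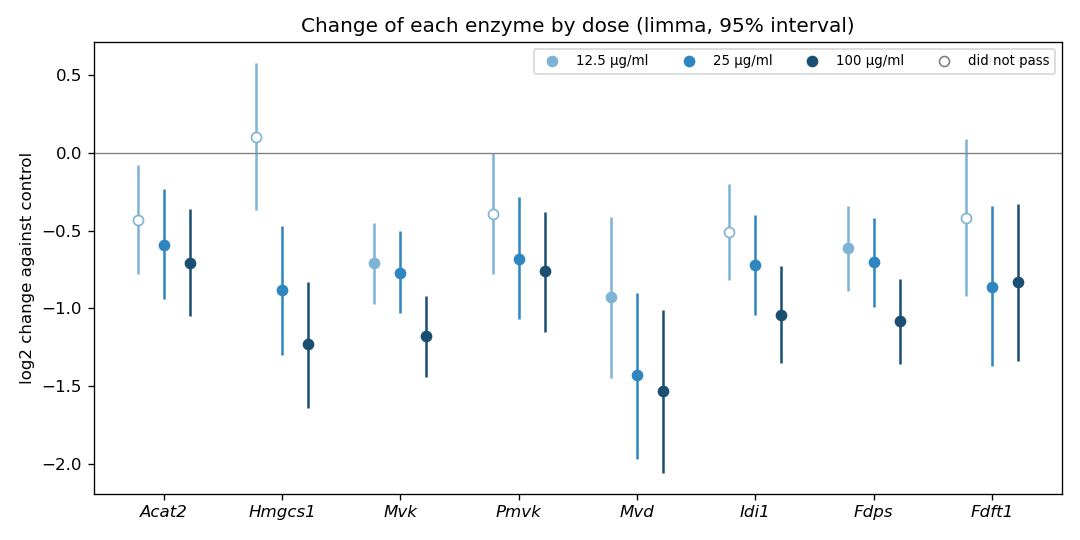
Log2 change against control (vertical axis) of each enzyme, in the order of the pathway, at 12.5, 25 and 100 µg/ml, with the 95% interval of limma; open points did not pass. Mvd is lowest at all 3 doses, and the low dose point of Hmgcs1 (0.10) is the single one above 0.

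Idi1 and Fdps make and join the isoprene units. Idi1, isopentenyl-diphosphate isomerase, read 2.97, 2.32, 2.39, 2.45 and 2.36 in the controls. It ran from 1.82 over a median of 2.00 to 2.19 at the low dose, read 1.66, 1.65, 1.69, 2.1 and 1.8 at the medium dose, and ran from 0.90 over a median of 1.5 to 1.82 at the high dose. No array of any dosed group reached the lowest control. Idi1 fell by 0.72 (SE 0.15, adjusted p = 0.00562) at the medium dose and by 1.04 (SE 0.15, adjusted p = 7.8e-05) at the high dose, where it stood at 48.7% of control. At the low dose the change was -0.51 (SE 0.15, adjusted p = 0.0687) and did not pass.

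Fdps, farnesyl diphosphate synthase and the target of nitrogen-containing bisphosphonates, had the tightest controls, at 0.93, 1.24, 1.18, 1.37 and 1.19. The low dose arrays ran from 0.18 over a median of 0.65 to 0.98, the medium dose arrays read 0.22, 0.51, 0.30, 0.81 and 0.54, and the high dose arrays ran from -0.10 over a median of 0.13 to 0.39. The high dose arrays were all below the lowest control. Fdps fell by 0.61 (SE 0.13, adjusted p = 0.01) at the low, by 0.70 (SE 0.14, adjusted p = 0.00257) at the medium and by 1.08 (SE 0.13, adjusted p = 1.3e-05) at the high dose. These are 65.4%, 61.4% and 47.2% of control. The low dose change was 1.53-fold, close to the threshold, and was lost in 15 of 43 alternative settings.

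Fdft1, squalene synthase, ends the arm. Its control arrays read 1.41, 1.87, 1.83, 1.46 and 2.10 and its medium dose arrays -0.04, 1.42, 1.02, 1.15 and 0.85. The low dose arrays ran from 0.28 over a median of 1.5 to 2.05, and the high dose arrays from 0.73 over 0.94 to 1.25, below every control. The change was -0.42 (SE 0.24, adjusted p = 0.488) at the low, -0.86 (SE 0.25, adjusted p = 0.0466) at the medium and -0.83 (SE 0.24, adjusted p = 0.0355) at the high dose. The medium dose call of Fdft1 was lost in 30 and the high dose call in 15 of 43 alternative settings, more often than any other call of the arm at those doses. The second Fdft1 probe, detected on 12 of 22 arrays, changed by -0.18, -0.36 and -0.26 and did not pass at any dose.

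Between doses the order was the same for most enzymes but the steps were small. All 8 changes from the low to the high dose were negative, with a median of -0.47 against 0 over all detected probes. Only Hmgcs1 passed, at -1.34 (SE 0.21, adjusted p = 0.00885), against 72 (0.218%) of all detected probes. This call rests on the 4 measured low dose arrays and was lost in 10 of 43 alternative settings, among them the fit of the 2 groups alone. Without low dose replicate 1 and medium dose replicate 2, Mvd passed as well, at -0.81 (adjusted p = 0.0283). From the low to the medium dose and from the medium to the high dose, limma called 0 enzymes, where 0 of 31536 (0%) and 0 of 32613 (0%) detected probes were lower. At an unadjusted p under 0.05, 1 enzyme (Hmgcs1, -0.99) passed from low to medium dose, where 3162 of all 55681 probes passed. From medium to high dose 3 enzymes did (Mvk -0.41, Idi1 -0.32 and Fdps -0.38), where 2301 of all probes passed. The ordinary linear model also called 0 enzymes in both. The interval of Fdft1 from medium to high dose was -0.48 to 0.53 and that of Mvd -0.62 to 0.42, so that a further decrease of these genes was not resolved.

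Averaged over the 8 enzymes, with each gene centred and slide differences removed, the arrays followed the dose. Hmgcs1 was missing on low dose replicates 3 and 4, so the values of these arrays average the other enzymes only. The control arrays had a mean log2 value of 0.61 ± 0.11 (SD, n = 5). Means were 0.10 ± 0.27 (SD, n = 6) with the low dose, -0.21 ± 0.22 (SD, n = 5) with the medium dose and -0.43 ± 0.09 (SD, n = 6) with the high dose. Controls (0.47 to 0.75) lay above all dosed arrays. The low dose (-0.29 to 0.45) and medium dose (-0.47 to 0.03) ranges overlapped, and the high dose ran from -0.52 to -0.27. At the low dose the lowest array was replicate 1, and at the medium dose the highest was replicate 2. Both were among the arrays that resembled another group more than their own. The lowest medium dose array was likewise replicate 1 (-0.47). Across the 22 arrays, the 28 pairs of enzymes correlated with Pearson's r between 0.43 (Mvk with Fdft1) and 0.95 (Mvd with Fdft1), a description over arrays that share the dose groups.

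**Figure D4:**
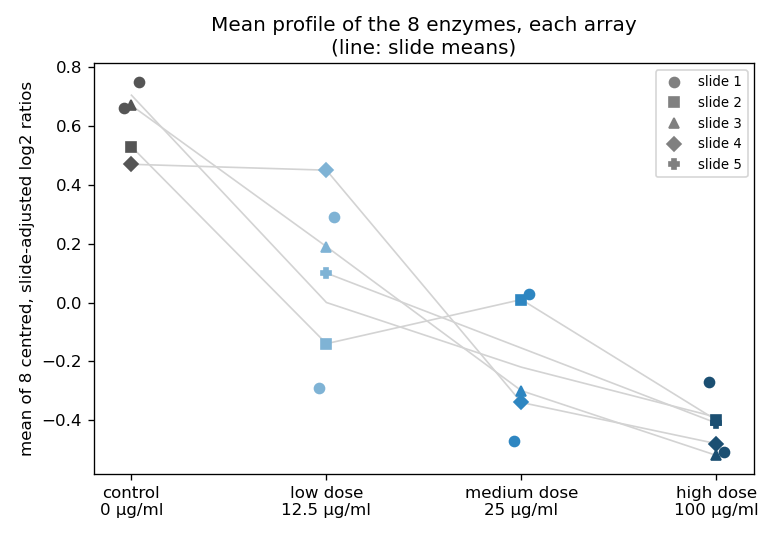
Mean over the 8 enzymes of the centred, slide-adjusted log2 ratio (vertical axis) for each array in the 4 groups, with a marker shape for each slide and grey lines joining the group means of a slide. Controls (0.47 to 0.75) sit above all other arrays, and low and medium dose arrays overlap. Low dose replicates 3 and 4 lack Hmgcs1.

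The other enzymes of the early steps were read from a list of 8 genes. Of these, 3 fell at the low dose, 3 at the medium and 5 at the high dose, with median log2 changes of -0.44, -0.54 and -0.64, and none rose. Acss2, which makes acetyl-CoA from acetate, fell by 0.89 (SE 0.12) with the low, by 1.11 (SE 0.11) with the medium and by 1.24 (SE 0.11) with the high dose. Acly, which makes acetyl-CoA from citrate, fell by 0.74, 0.78 and 0.75 and thus lay at about the same level at each dose. Acat3 fell by 0.97, 1.06 and 1.51. Mmab, the cobalamin enzyme that is known to share a promoter region with Mvk, fell by 0.68 (SE 0.09) at the high dose.

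The branches that take farnesyl diphosphate away from sterols gave other values. Of 14 genes for prenyl transferases, prenyl protein processing, dolichol and ubiquinone, limma called 0 at each dose, and the ordinary linear model called 0 too. By limma 3, 5 and 2 of the 14 had an unadjusted p under 0.05, against 7722, 8476 and 9833 of all 55681 probes. The median log2 changes of the 14 were 0.12, 0.25 and 0.14. Ggps1, which makes geranylgeranyl diphosphate, changed by -0.16 (SE 0.30), 0.29 (SE 0.30) and 0.17 (SE 0.30), with intervals too wide to set it apart from a modest change either way. Rabggta, a subunit of the Rab prenylating enzyme, was at 0.38 (SE 0.08, adjusted p = 0.00509) at the high dose, under the fold threshold.

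Past squalene, the sterol arm fell with the mevalonate arm. Of its 12 enzymes 2 fell at the low, 5 at the medium and 8 at the high dose, with medians of -0.59, -0.78 and -0.94. Tm7sf2, a sterol reductase, fell by 0.99 (SE 0.11), by 1.30 (SE 0.12) and by 1.60 (SE 0.11), and Lss, which closes the sterol rings, by 0.94, 1.10 and 1.31. Sqle, squalene epoxidase, changed by -0.73 (SE 0.29, adjusted p = 0.229), -0.78 (adjusted p = 0.169) and -1.15 (adjusted p = 0.0142). Cyp51, at -0.05, -0.20 and -0.50, did not pass at any dose.

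Among 16 genes of sterol regulation and transport 0 fell at the low dose, 1 at the medium and 4 at the high dose, with medians of -0.19, -0.20 and -0.26. At the low dose 6 of the 16 had an unadjusted p under 0.05 by limma, against 7722 of all 55681 probes. The ordinary linear model called 0 of the 16 at that dose. Insig1, which holds SREBP in the endoplasmic reticulum and is itself a known SREBP target, changed by -0.46 (SE 0.16, adjusted p = 0.128) and fell by 0.88 (SE 0.16) and 0.91 (SE 0.16). The sterol carrier Stard4 fell at the high dose by 0.96 (SE 0.12), and so did Mylip, a ubiquitin ligase, by 0.84 (SE 0.16). Srebf2, which encodes the SREBP form best known for this pathway, stood at -0.22 (SE 0.20) for the low dose, -0.18 (SE 0.20) for the medium dose and -0.29 (SE 0.20, adjusted p = 0.555) for the high dose.

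**Figure D5:**
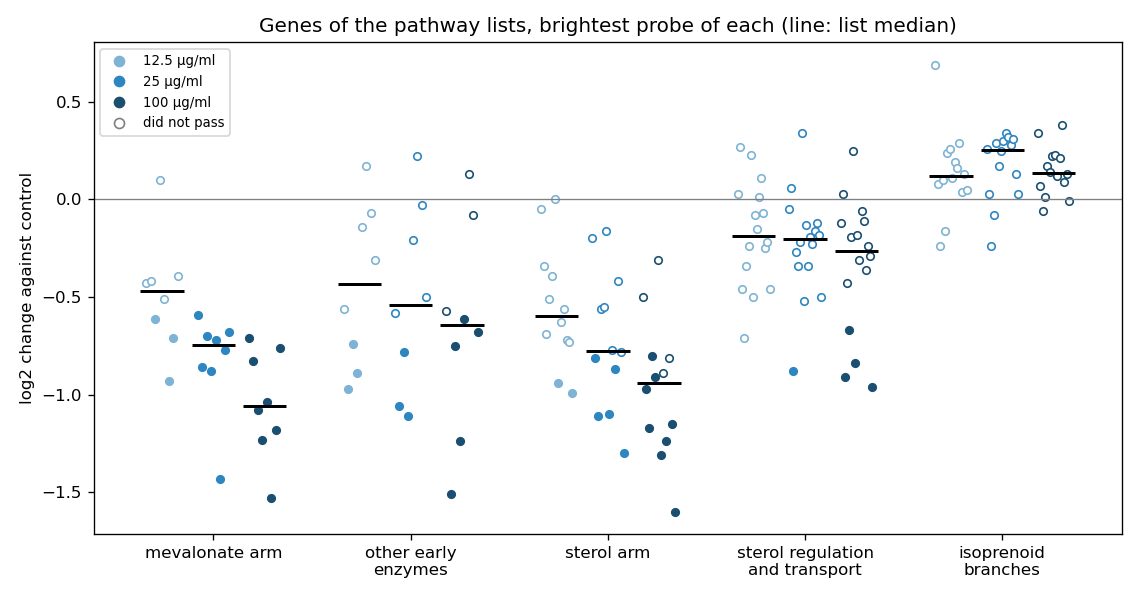
Log2 change against control (vertical axis) of each gene of the 5 pathway lists at the 3 doses, by its brightest probe; filled points passed, open points did not, and black lines are list medians. The mevalonate arm (medians -0.47, -0.74 and -1.06) and the sterol arm (-0.59, -0.78 and -0.94) lie below 0, and the isoprenoid branches (0.12, 0.25 and 0.14) around and above it.

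Among the 10 genes whose slide-adjusted profile over the arrays was most like the mean of the 8 enzymes, out of 10972 genes detected on at least 20 arrays, were Pdgfrb (r = 0.966), Tapbp, Maged2, Pcx, Kifc3, Nsdhl, Chpf2, Olfml3 and Synpo (r = 0.956). The sterol enzyme Nsdhl ranked 6. Of the early, sterol and regulation genes named above, Acat3 ranked 38, Lss 49, Insig1 61, Acss2 70 and Tm7sf2 143. Further down came Mmab at 313, Acly at 455, Stard4 at 746 and Cyp51 at 1081. Sqle ranked 2233 (r = 0.476) and Srebf2 2381 (r = 0.454). The high dose changes of the first 10 ran from -0.67 for Kifc3 to -2.96 for Olfml3. The arrays share dose groups and slides, so these correlations describe a shared pattern over doses.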

How the data were processed

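RNA of FE1 cells (Cy5) and reference RNA (Cy3) was hybridised to 22 Agilent arrays. The deposited scanner files hold median spot intensity in both channels, extracted by the authors with no normalization (Feature Extraction 10.7.3.1 at 3 µm, per the file headers; the methods name another version and resolution). The log10 ratio deposited in the same files comes from the extraction software, after background and dye corrections of its own, per the file headers. The authors' processed table holds log2 ratios by a normalization that is not given in the sources used here. From the intensities, log2(Cy5/Cy3) was taken with no background removed, and each array was loess-normalised on its own; spots marked non-uniform or outlying were set missing, and spots of a probe were combined by their median. A probe was detected when its Cy5 signal lay above a limit from 308 negative control spots (their 5% trimmed mean and 3 trimmed SDs on top). Probes were named by accession through RefSeq for GRCm38.p6, for 26413 of 55681 probes; the grid is on another build, so probes have no coordinates. Signal is not a count, so the number of arrays limits the precision. No pair of arrays was a duplicate (highest correlation 0.9594, and at most 2.4% of spots equal).

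The model, in limma 3.58.1 (R 4.3.3), had group and slide as terms over all 22 arrays; limma's moderated test stands in for the permutation test of the study, and p-values were adjusted over all 55681 probes. The script was tested on simulated data. Replicate numbers in the labels were checked for pairing. All 31 pairs of samples with the same number, taken across groups, deviated together (r from 0.17 to 0.86), and 27 of 31 lay on the same slide. The slide term carries this pairing only in part, because slide 1 held replicates 1 and 2 of every group. Pairs on different slides deviated together as well (r = 0.34, 0.47, 0.53 and 0.54). A fit with the replicate block in place of the slide term is among the alternatives. All 8 enzymes, all their probes, Ggps1, Sqle, Srebf2 and Insig1 were named whatever their values, and other genes of the lists when called at a dose; Rabggta and Cyp51 were named after their values were seen. The 10 genes most like the enzymes follow a fixed rule of correlation. Some genes that these rules name are not reported here singly and are counted only in their lists. The members, the lists of early enzymes, isoprenoid branches, sterol arm, regulation and cell type markers were chosen with earlier results of these data known. Alternatives were other normalizations, filters, thresholds, models and left-out arrays or slides.

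At the high dose 0 alveolar type II markers fell and 1 (Lamp3) rose, 1 alveolar type I marker (Hopx) fell, and 0 leukocyte and 0 endothelial markers were called.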

Additional observations from a re-analysis of the deposited data

Results flagged for a closer look

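Among 32 groups of values (8 enzymes in 4 groups) 4 held an array far from the others of its group, where chance alone gives about 1 in 20 groups. Acat2 read -0.39 on low dose replicate 1, with the next array at 0.37. Acat2 read 0.68 on high dose replicate 5, with the next array at 0.07. Pmvk read 0.34 on high dose replicate 1, with the next array at -0.04. Idi1 read 2.97 on control replicate 1, with the next array at 2.45.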

How the results depend on the processing

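Over 43 alternatives the median change of the 8 enzymes kept its direction at each dose, between -0.62 and -0.34 at the low, -0.82 and -0.65 at the medium and -1.13 and -0.96 at the high dose, and between -0.58 and -0.37 from the low to the high dose. Counts moved more; the cause was not tested. At the low dose (3 enzymes) the count was 0 with the scanner log ratio and with a 2-fold threshold, and 1 with median centring, with the authors' processed values, with no slide term, with only the 2 groups compared and without slide 1, 2 or 3. At the medium dose (8 enzymes) it was 1 with median centring and with a 2-fold threshold, 3 without slide 1, 4 with no slide term, with the ordinary linear model and without slide 3, and 5 with outlier spots kept and with only the 2 groups compared. At the high dose (8 enzymes) it was 5 with a 2-fold threshold and without slide 3. From the low to the high dose (1 enzyme) it was 0 with median centring, the authors' processed values, outlier spots kept, no slide term, only the 2 groups, the ordinary linear model and without slide 3 or 5, 2 without slide 2 and without low dose replicate 1 and medium dose replicate 2 together, and 3 with the scanner log ratio.

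Leaving out each array in turn gave 1 to 3 enzymes at the low, 4 to 8 at the medium, 7 to 8 at the high dose and 0 to 2 from the low to the high dose. The low dose count was 1 without control replicate 2, 3 or 4 or low dose replicate 1 or 4. The medium dose count was 4 without control replicate 1, and 5 without control replicate 2 or 3 or medium dose replicate 1, 3 or 5. The count from the low to the high dose was 0 without low dose replicate 5 or high dose replicate 5 and 2 without low dose replicate 4. For Hmgcs1, the change at the low dose turned to -0.13 with median centring and with the authors' processed values, to -0.02 with the scanner log ratio, to -0.29 without slide 4, and, leaving out 1 array each, lay between -0.31 and 0.33; it was 0.78 without slide 1 and 0.34 without low dose replicate 1 and medium dose replicate 2 together.

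With the replicate block in place of the slide term the counts were 3, 8 and 8 enzymes and 1 from the low to the high dose. The low dose change of Hmgcs1 was then -0.11, and the block changed no other direction and no call of an enzyme. At the high dose the SEs of the enzymes ran from 0.12 to 0.20 with the block, against 0.12 to 0.25 with the slide term. Lower probes made up 57.9%, 52.2% and 55.7% of all calls at the 3 doses, 84.6%, 63% and 71% with median centring, and 53.7%, 44% and 49.2% with the scanner log ratio. Where a slide left out brought a group under 4 arrays, detection was asked of all arrays of that group.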
